A study of Homo sapiens with 9 samples.

Results

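Genetic studies of polycystic ovary syndrome have tied the disorder to a set of chromosomal regions, and 10 genes named at those regions were examined here in KGN cells given insulin: DENND1A, THADA, HMGA2, TOX3, RAB5B, RAD50, MAPRE1, ERBB3, ERBB4 and NEIL2. They were chosen by name, with earlier results of these data known. A row of the deposited count table carried the symbol of 9 of the 10, out of 15983 rows in all. TOX3 had no row and was not analysed here. KGN is an established line grown from a human granulosa cell tumour, and the granulosa cell is the follicle cell that responds to FSH and makes oestrogen. All cells were labelled wild type, were kept in DMEM with 10% fetal bovine serum, and were starved for 12 h before treatment. The 3 groups then received for 72 h the solvent alone (control), insulin at 0.5 µg/ml (the lower dose) or insulin at 1 µg/ml (the higher dose), with 3 RNA-seq libraries in each group. All libraries come from the same tumour line, so the values describe that line and no donor tissue.

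Polycystic ovary syndrome combines excess androgen, irregular ovulation and follicles that stall in growth, and high circulating insulin is common in those affected. A risk locus is a stretch of genome where common variants are more frequent in cases. The gene named at such a locus is usually the nearest or the most plausible one, and the variants themselves mostly lie outside coding sequence. The genes named here belong to several cell functions. ERBB3 and ERBB4 are receptors of the EGF receptor family that bind neuregulins, DENND1A and RAB5B act in endocytosis, MAPRE1 binds growing microtubule ends, THADA takes part in tRNA methylation, RAD50 and NEIL2 repair DNA, and HMGA2 and TOX3 are chromatin proteins of the high mobility group type.

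Library totals ran from 18965722 to 20446405 counts, so a count of 0 in the smallest library allows up to 3 counts, or 0.158 CPM (counts scaled to a common library size). That limit covers counting error only. All 12 granulosa markers examined passed the filter on low counts, among them the granulosa transcription factor FOXL2. CYP19A1, the aromatase gene, had a mean of 1.48 FPKM (fragment counts scaled by gene length and library size). The lowest of the list were INHA at 0.485 FPKM and NR5A2 at 0.108 FPKM, the latter below the blood marker PTPRC at 0.282 FPKM. The epithelial list (5 of 6 passed, summed level 1749 to 1957 CPM) and the fibroblast list (5 of 5, 627 to 800 CPM) stood above the granulosa list (483 to 529 CPM) in sum, so passing the filter does not by itself mark cell identity. Few genes carried those sums. KRT18 had 315485 counts over all libraries, where KRT8 had 9901 and EPCAM, which did not pass, had 7. Of the fibroblast list ACTA2 and THY1 had 72791 and 42725 counts, and LUM and DCN 358 and 273. Of blood and endothelial markers with a row 1 of 4 and 1 of 3 passed the filter. None of 4 theca markers passed it, and CYP17A1, which makes androgen in theca cells, had 1 count in all 9 libraries together. Lower dose replicate 1 stood apart from its group: its chi-square per degree of freedom was 8.01 and 8.46 against the other lower dose libraries, which differed from each other by 2.19. The labels do not say whether the replicates are separate cultures, so every p-value here measures the spread between these libraries, which may be technical.

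The risk-locus genes spanned a wide range of expression in KGN cells. On the per-length FPKM scale, averaged over all 9 libraries, MAPRE1 was highest at 40.1 ± 2.67 (SD, n = 9) and ERBB3 was next at 36.7 ± 3.39. RAB5B followed at 18.0 ± 0.662 and RAD50 at 10.05 ± 0.450. NEIL2, at 4.76 ± 0.439, and HMGA2, at 4.75 ± 0.371, were level with each other. THADA stood at 3.56 ± 0.258, DENND1A at 2.39 ± 0.124, and ERBB4 at 0.184 ± 0.0379, which left DENND1A 13.0-fold above ERBB4. The ranges of MAPRE1 and ERBB3 overlapped over the 9 libraries, as did those of NEIL2 and HMGA2, and the other 6 steps of the order separated neighbours without overlap. Set among all 15983 rows, MAPRE1 lay at the 91.0 percentile of mean FPKM and ERBB4 at the 22.6 percentile. These levels depend on the gene lengths behind the deposited FPKM, which ran from 2317 bases for NEIL2 to 12352 bases for ERBB4. In bulk RNA, more cells expressing a gene and more RNA per cell cannot be told apart.

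**Figure D1:**
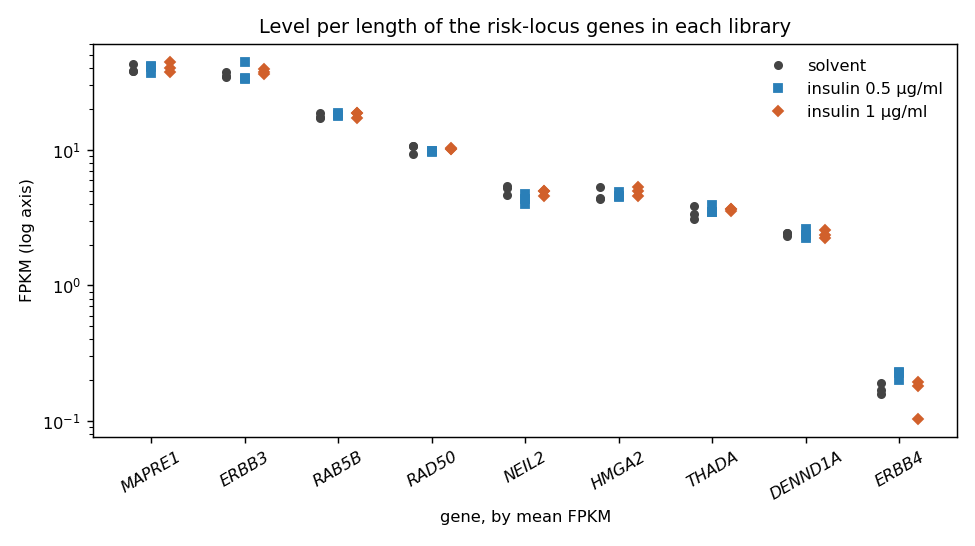
Deposited FPKM (log axis) of the 9 genes in each of the 9 libraries, in order of mean level, with the groups in different colours. MAPRE1 and ERBB3 share the top of the order with overlapping ranges, and ERBB4, at a mean of 0.184 FPKM, lies far below the others.

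The start regions of the genes at both ends of this order are printed to show how the most and the least abundant member differ in CpG content, a feature of many broadly expressed promoters. Each run covers 300 bases around the annotated start, read 5′ to 3′ on the gene's strand from RefSeq on GRCh38.p14, with every CpG pair in capitals. The MAPRE1 window is chr20:32819704-32820003 on the plus strand and the ERBB4 window is chr2:212538753-212539052 on the minus strand.
MAPRE1: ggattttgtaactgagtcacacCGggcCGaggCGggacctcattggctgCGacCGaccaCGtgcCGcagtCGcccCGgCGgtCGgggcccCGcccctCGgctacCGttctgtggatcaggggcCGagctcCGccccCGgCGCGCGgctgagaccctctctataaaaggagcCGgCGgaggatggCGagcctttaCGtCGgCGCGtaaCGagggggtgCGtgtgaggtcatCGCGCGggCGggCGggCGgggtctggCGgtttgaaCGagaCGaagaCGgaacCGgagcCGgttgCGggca
ERBB4: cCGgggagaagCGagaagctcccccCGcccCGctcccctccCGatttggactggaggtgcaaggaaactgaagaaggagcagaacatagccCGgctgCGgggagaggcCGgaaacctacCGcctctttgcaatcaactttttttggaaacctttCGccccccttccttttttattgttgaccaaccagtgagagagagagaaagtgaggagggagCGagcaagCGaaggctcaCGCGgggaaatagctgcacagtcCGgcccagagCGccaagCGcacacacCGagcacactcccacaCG
The MAPRE1 window held 42 CpG pairs at 70.0% GC. The ERBB4 window held 19 at 59.0% GC, and the median over 35116 RefSeq windows of the same length was 14 pairs at 58.7%. DENND1A, with the next lowest level after ERBB4, also held 42. Windows were matched by symbol for 6 of the 10 genes: MAPRE1, ERBB4, DENND1A, THADA, RAB5B and RAD50. The forkhead-type motif GTAAACA, searched because insulin signalling acts on forkhead factors, was on neither strand of any of these windows, and 3.42% of all windows hold it.

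Insulin was followed by no change in these genes that passed the test. The edgeR quasi-likelihood test with Benjamini-Hochberg adjustment over 12665 genes called 0 of 9 members at the lower dose against control, where it called 0.0% of all tested genes. At the higher dose against control it also called 0 of 9 (0.0% of all tested genes), and between the doses 0 of 9 (0.0%). A test for any difference between the 3 groups called 0 of 9 (0.0%), as did a linear trend in dose (0.0%). At an unadjusted p under 0.05 there were 0 of 9 members in each of the 5 comparisons, beside 6.08% of tested genes at the lower dose, 2.35% at the higher dose, 5.64% between doses, 4.43% over the 3 groups and 2.22% for the trend. With 1 library left out there were up to 2 members, at the lower dose without control replicate 1. In that fit 1333 of 12771 tested genes were under 0.05, beside 770 of 12665 with all libraries. DESeq2 also called 0 of 9 members in each of the 5 comparisons. The 3 pairwise comparisons share libraries, so their results are not independent of each other.

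The intervals bound how large a change these libraries could have hidden. At the lower dose, 8 of 9 members had a 95% interval within 1.5-fold either way, against 87.5% of tested genes. At the higher dose 8 of 9 did (87.9% of tested genes), between the doses 8 of 9 (87.5%), and for the trend 8 of 9 (87.8%). ERBB4 was the exception each time. Log2 fold changes lay above 0 for 7 of 9 members at the lower dose (51.9% of tested genes), 6 of 9 at the higher dose (49.8%), 5 of 9 between doses (49.5%) and 6 of 9 for the trend (49.8%). At the lower dose against control 1 of 9 members had groups that did not overlap, ERBB4, and it was higher (5.1% of tested genes were higher in this way, 5.61% lower and 10.7% either). At the higher dose against control 0 of 9 did (3.81% higher, 3.92% lower, 7.73% either). Between the doses RAD50 was higher (5.85%) and ERBB4 lower (6.31%), so 2 of 9 did not overlap, against 12.2% in either direction. The median log2 fold change of the members was 0.01 at the lower dose, 0.03 at the higher dose and 0.01 between doses, where the medians over all tested genes were 0.00, -0.00 and -0.00. In size the members' changes had a median of 0.05, 0.06 and 0.03, against 0.07, 0.05 and 0.06 for all tested genes. A missed threshold does not show that a gene was unaffected. The intervals of ERBB4, the widest, ran from 0.912-fold to 1.78-fold at the lower dose, from 0.653-fold to 1.31-fold at the higher dose and from 0.518-fold to 1.02-fold between doses.

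**Figure D2:**
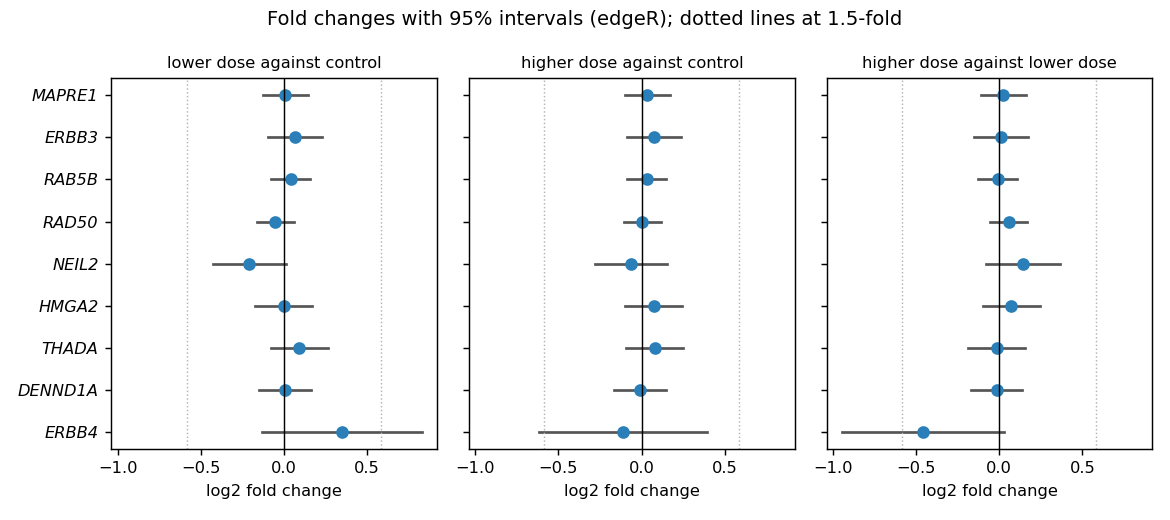
Log2 fold change of each gene with its 95% interval, in panels for the lower dose against control, the higher dose against control and the higher against the lower dose, with dotted lines at 1.5-fold either way. Every interval includes 0, and those of ERBB4 are the widest, reaching from 0.518-fold to 1.02-fold between the doses.

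ERBB3 and ERBB4 are the neuregulin receptors of the EGF receptor family. ERBB3 has little kinase activity of its own and signals with a partner such as ERBB2, while ERBB4 is an active kinase. ERBB3 lies on hg38 at chromosome 12, 56076799 to 56103505, and ERBB4 spans 1163125 bases of chromosome 2, from 211375717 to 212538841. In TMM-scaled CPM, ERBB3 read 212, 198 and 195 in control, 253, 191 and 189 at the lower dose, and 222, 210 and 205 at the higher dose. Lower dose replicate 1 was thus far above the other libraries of its group, and in all 3 groups replicate 1 held the highest value. Pooled over the groups, ERBB3 had the largest ratio of spread to counting error. Its coefficient of variation (CV) within groups was 10.4%, where counting alone gives 1.55%. Most of that spread came from the lower dose group, with an SD of 36.1 CPM, beside 8.89 in control and 8.35 at the higher dose. The log2 fold change of ERBB3 was 0.07 ± 0.08 (SE) at the lower dose and 0.08 ± 0.08 at the higher dose. The sign at the lower dose rested on 1 library: without lower dose replicate 1 it was -0.08 ± 0.05, and the difference between doses moved from 0.01 to 0.16 ± 0.05 (edgeR adjusted p = 0.365).

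ERBB4 had the fewest counts of the 9 genes, 408 over all 9 libraries. Its counts were 45, 42 and 40 in control, 56, 55 and 51 at the lower dose, and 48, 45 and 26 at the higher dose. In TMM-scaled CPM these were 2.13 ± 0.221 (SD, n = 3), 2.72 ± 0.179 and 1.97 ± 0.604. All 3 lower dose libraries lay above all 3 control libraries and above all 3 higher dose libraries. Among all tested genes, 5.1% had such a gap upwards at the lower dose against control and 6.31% downwards at the higher dose against the lower. The log2 fold change was 0.35 ± 0.23 at the lower dose (edgeR adjusted p = 0.809), -0.11 ± 0.24 at the higher dose (adjusted p = 1.00) and -0.46 ± 0.23 between the doses (adjusted p = 0.850). Higher dose replicate 3, at 26 counts, weighed on these values: without it the log2 fold change was 0.12 ± 0.23 at the higher dose and -0.23 ± 0.23 between doses. The CV of ERBB4 within groups was 19.04%, where counting alone gives 14.9%.

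**Figure D3:**
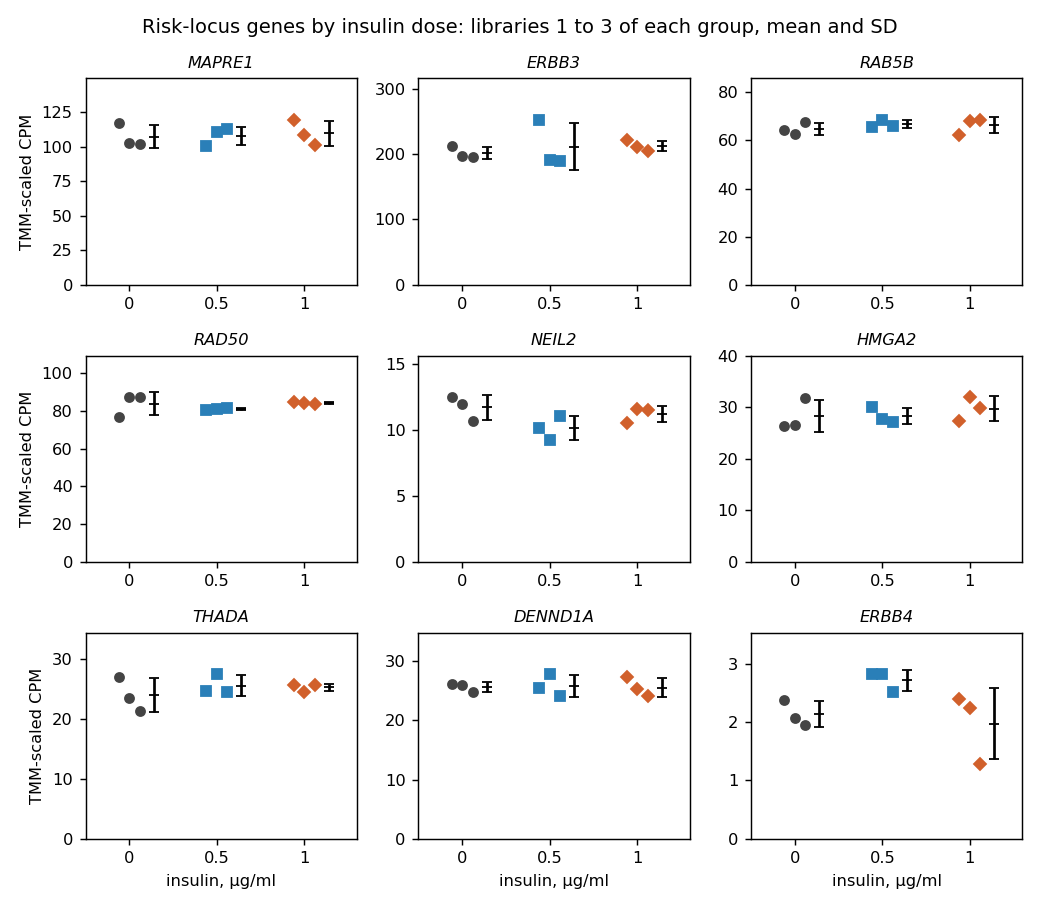
TMM-scaled CPM of each gene in every library (points) against insulin dose in µg/ml, with the group mean and SD (bars), 1 panel per gene and an own axis for each. The lower dose libraries of ERBB4 (2.51 to 2.83 CPM) lie above both other groups, and 1 lower dose library of ERBB3 (253 CPM) lies above all others.

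Within the receptor family, ERBB3 made up 49.1% ± 2.19 (SD, n = 9) of the summed FPKM of the 4 receptors and ERBB4 0.247% ± 0.0505. EGFR stood at 24.5 FPKM and ERBB2, the usual partner of ERBB3, at 13.2 FPKM. Of 10 ligand genes with a row, 8 were tested, led by HBEGF at 3.58, the neuregulin gene NRG1 at 3.28 and TGFA at 2.50 FPKM. The filter removed AREG (37 counts in all) and EREG (2 counts). The 11 adaptors and regulators of the receptors ranged widely, from SHC1 at 73.8, the phosphatase gene PTPN11 at 32.6 and GRB2 at 31.9 FPKM down to the docking protein gene GAB1 at 0.837 FPKM. None of the 21 other genes tested in these 3 lists was called at either dose.

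DENND1A and RAB5B both act where receptors enter the cell. DENND1A, also called connecdenn, is a guanine nucleotide exchange factor that activates RAB35 on clathrin-coated vesicles, and a shorter splice form has been linked to androgen production in theca cells. RAB5B is a small GTPase of early endosomes. DENND1A, on chromosome 9 from 123379654 to 123930152, read 26.2, 26.0 and 24.7 CPM in control, 25.5, 27.9 and 24.1 at the lower dose and 27.3, 25.2 and 24.1 at the higher dose. The 3 groups overlapped almost fully, with log2 fold changes of 0.01 ± 0.07 and -0.01 ± 0.07. Counts per gene do not separate splice forms, so the balance between the long and the short form was not measured. RAB5B, on chromosome 12 from 55973913 to 55996683, read 64.2, 62.9 and 67.6 CPM in control, 65.7, 68.7 and 65.9 at the lower dose and 62.5, 68.1 and 68.5 at the higher dose. It had the smallest CV within groups of the 9 genes, 3.92%, and log2 fold changes of 0.04 ± 0.06 and 0.03 ± 0.06.

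DENND1A took 68.2% ± 1.252 of the summed FPKM of the 3 DENND1 genes. DENND1B stood at 1.09 FPKM, and DENND1C was removed by the filter with 15 counts. Its substrate gene RAB35 stood at 23.2 FPKM, and of the other DENN genes DENND5A (41.1 FPKM) and DENND2B (19.3 FPKM) were the most abundant. The coat that DENND1A binds was strongly expressed: the adaptor subunit genes AP2M1 and AP2S1 stood at 310 and 231 FPKM and the clathrin light chain gene CLTA at 96.1 FPKM. RAB5B was the least abundant of the RAB5 genes, with 12.9% ± 0.419 of their sum, beside RAB5C at 87.2 and RAB5A at 34.9 FPKM. VPS45, an endosomal fusion factor, stood at 20.8 FPKM. In these 3 lists 0 of 39 other tested genes were called at either dose.

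MAPRE1 encodes EB1, the protein that tracks growing microtubule ends and recruits other factors there. It lies on chromosome 20 from 32819893 to 32850405. MAPRE1 read 117, 103 and 102 CPM in control, 100.2, 111 and 113 at the lower dose and 120, 108 and 101 at the higher dose. No group stood apart, and the log2 fold change was 0.01 ± 0.07 at the lower dose and 0.03 ± 0.07 at the higher dose. MAPRE1 supplied 54.6% ± 2.14 of the summed FPKM of the 3 EB genes, with MAPRE2 at 18.3 and MAPRE3 at 14.98 FPKM. Of other plus-end genes CKAP5 (44.5 FPKM), DCTN1 (41.7 FPKM) and MACF1 (38.9 FPKM) were close to MAPRE1 in level, SLAIN1 was removed with 1 count, and 0 of 12 tested were called.

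THADA lies on chromosome 2 from 43230836 to 43596046. The gene was first known from translocations in thyroid adenomas, and its protein works with the tRNA methyltransferase FTSJ1. THADA read 26.9, 23.5 and 21.3 CPM in control, 24.6, 27.5 and 24.5 at the lower dose and 25.6, 24.5 and 25.6 at the higher dose. Both treated groups lay within or just above the control range, and the log2 fold changes were 0.09 ± 0.08 and 0.08 ± 0.08. Both moved with single libraries. Without control replicate 1, the highest control, they rose to 0.19 ± 0.08 (edgeR adjusted p = 0.450) and 0.17 ± 0.08 (adjusted p = 0.999). Without control replicate 3, the lowest control, they fell to 0.0176 and 0.00350. Without lower dose replicate 2 the lower dose value fell to 0.0382. FTSJ1 (28.9 FPKM) and WDR6 (32.6 FPKM), another partner of FTSJ1, were each far above THADA in level per length, and neither was called.

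RAD50 and NEIL2 repair different lesions. RAD50 holds together broken DNA ends in the MRN complex with MRE11 and NBN, and NEIL2 is a glycosylase that removes oxidised bases. RAD50, on chromosome 5 from 132556019 to 132646344, read 76.9, 87.4 and 87.6 CPM in control, 80.3, 81.2 and 81.8 at the lower dose and 84.9, 84.3 and 83.7 at the higher dose. The 3 higher dose libraries all lay above the 3 lower dose libraries, a gap that 5.85% of tested genes also had in that direction, while control replicate 1 lay below both groups and control replicates 2 and 3 above both. The log2 fold change between the doses was 0.06 ± 0.05 (edgeR adjusted p = 0.920). GENCODE places 79.7% of the exon bases of RAD50 inside the read-through gene AC116366.3 on the same strand. AC116366.3 has no row among the deposited counts, and reads counted for RAD50 could come from either gene.

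NEIL2, on chromosome 8 from 11769639 to 11787346, read 12.5, 12.0 and 10.7 CPM in control, 10.2, 9.25 and 11.0 at the lower dose and 10.5, 11.6 and 11.5 at the higher dose. The lowest 2 values were both at the lower dose, but the third lower dose library lay inside the control range. The log2 fold change of NEIL2 at the lower dose was -0.21 ± 0.11, with an interval from 0.744-fold to 1.01-fold (edgeR adjusted p = 0.792). At the higher dose it was -0.06 ± 0.10. NEIL2 made up 31.1% ± 2.40 of the summed FPKM of the NEIL genes, between NEIL3 at 10.07 and NEIL1 at 0.478 FPKM. Among other base excision repair genes APEX1 (69.8 FPKM), PARP1 (41.5 FPKM) and MPG (27.5 FPKM) led. RAD50 formed 51.4% ± 0.832 of the MRN sum, with NBN at 6.67 and MRE11 at 2.83 FPKM, and the end-joining genes XRCC6, XRCC5 and PRKDC stood at 147, 77.0 and 24.1 FPKM. In the repair lists 0 of 29 other tested genes were called at either dose.

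**Figure D4:**
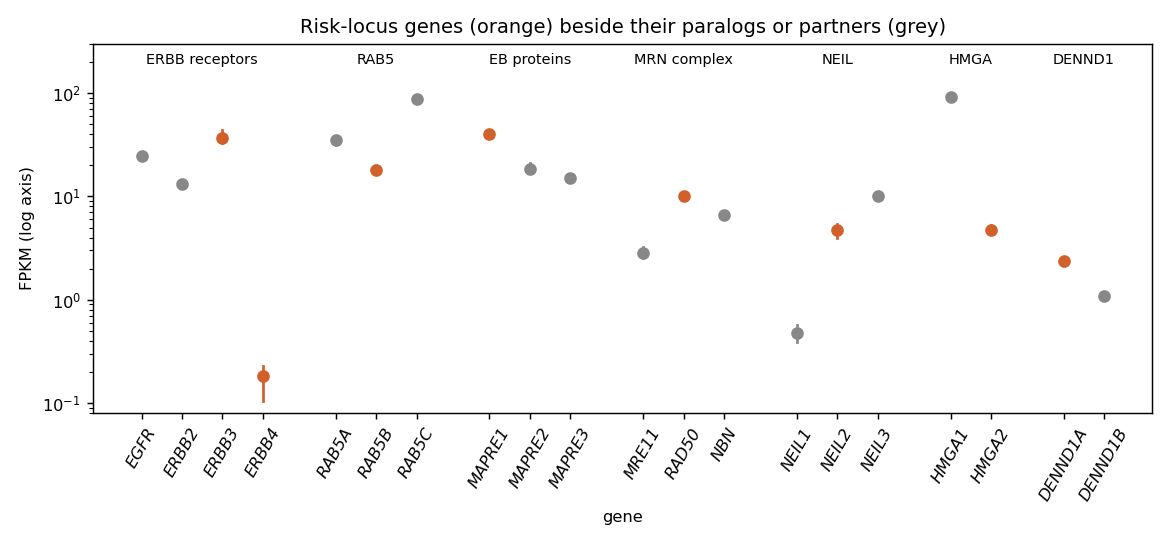
Mean FPKM over 9 libraries (log axis; bars show the lowest and highest library) of the risk-locus genes in orange beside paralogs or complex partners in grey. MAPRE1, ERBB3, RAD50 and DENND1A lead their families, whereas RAB5B, HMGA2 and ERBB4 are the least abundant of theirs.

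HMGA2 is an architectural protein that bends AT-rich DNA and is abundant in embryonic and tumour cells. Its messenger RNA is a textbook target of the let-7 microRNAs, which were not measured here. The seed and its matches are printed because HMGA2 was the only member whose principal 3′ UTR held them. The mature let-7a (RefSeq) is given with seed bases 2 to 8 in capitals, and each HMGA2 site with the 7 bases that pair with that seed in capitals.
hsa-let-7a-5p: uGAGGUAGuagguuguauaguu
HMGA2 site 1: aacgttcgatttCTACCTCagc
HMGA2 site 2: cactactcaataCTACCTCtga
HMGA2 site 3: acttgcaaagacCTACCTCcag
HMGA2 site 4: caaaacacactaCTACCTCtta
The 4 sites start their CTACCTC match at positions 21, 1256, 1668 and 2521 of the 3003-base 3′ UTR of the principal HMGA2 transcript in GENCODE 29, searched on the transcript strand. The other 8 members had 0 matches in their principal 3′ UTRs. Of 18451 genes with a 3′ UTR of at least 50 bases, 8.81% had at least 1 match, and 12 genes, HMGA2 included, had 4 or more. A match describes these letters and is no evidence of binding in KGN cells.

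HMGA2, on chromosome 12 from 65824131 to 65966295, read 26.5, 26.5 and 31.9 CPM in control, 30.02, 27.8 and 27.1 at the lower dose and 27.4, 32.1 and 29.9 at the higher dose. The groups overlapped, and the log2 fold change was 0.00 ± 0.08 at the lower dose and 0.07 ± 0.08 at the higher dose, the latter from 0.0172 to 0.17 when 1 library was left out. HMGA2 was a small part of its family, with 4.94% ± 0.396 of the summed FPKM of HMGA1 and HMGA2, since HMGA1 stood at 91.5 FPKM. Of the proteins that bind let-7 or its targets, IGF2BP3 and IGF2BP2 stood at 16.0 and 13.7 FPKM, while LIN28A and IGF2BP1 were removed with 3 counts each. TOX3 has 3 relatives in the table, TOX4 at 15.1, TOX2 at 9.23 and TOX at 0.331 FPKM, and none of them was called.

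**Figure D5:**
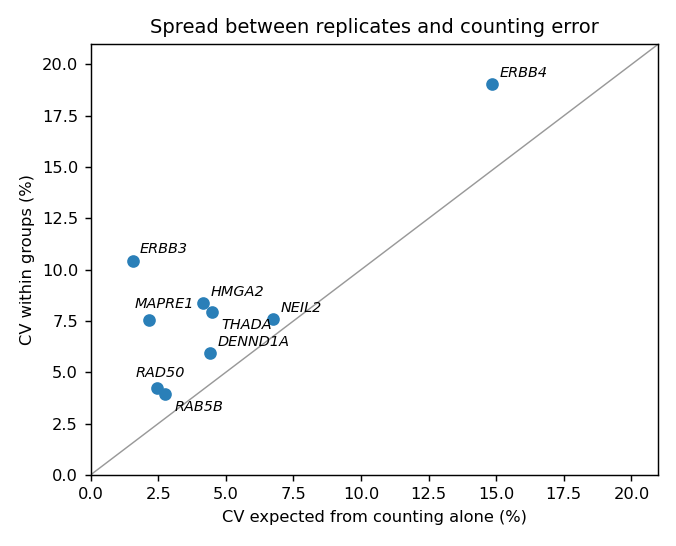
CV within groups against the CV that counting alone would give, both in percent, for the 9 genes, with a line of equality. ERBB3 (10.4% against 1.55%) lies farthest above the line in ratio, mainly through its lower dose group, whereas NEIL2 (7.58% against 6.74%) lies close to it.

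A further 16 genes named at risk loci of the syndrome were read beside the members, 14 of them with a row and 13 tested. FDFT1, an enzyme of cholesterol synthesis, led at 56.0 FPKM, followed by the transcription factor GATA4 at 38.3 and the mitochondrial dismutase SOD2 at 32.2 FPKM. The FSH receptor gene FSHR stood at 1.47 FPKM and the insulin receptor gene INSR at 1.52 FPKM, while the LH receptor gene LHCGR was removed with 1 count. Over all family and risk-locus lists together, 0 of 125 other tested genes were called in any pairwise comparison by edgeR. At an unadjusted p under 0.05 there were 6 (4.8%, beside 6.08% of all tested genes) at the lower dose, 4 (3.2%, beside 2.35%) at the higher dose and 8 (6.4%, beside 5.64%) between doses. The 4 at the higher dose, named after their values were seen, were AOPEP, DENND4A, EPGN and YAP1.

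The members lie in very different surroundings. RAB5B and ERBB3 share a locus on chromosome 12, with 80115 bases between them, and SUOX and IKZF4, also named at risk loci, lie in that gap at 1.92 and 1.36 FPKM. Within 250 kb of both lie MYL6, a myosin light chain gene, at 1292 FPKM and RPL41 at 749 FPKM, a ribosomal protein gene with pseudogene copies whose reads may be shared. NEIL2 lies 9637 bases from GATA4 and 8227 bases from FDFT1, and both stood above it in level, as did CTSB at 215 FPKM. RAD50 lies 65221 bases from IRF1, a transcription factor gene at 17.4 FPKM, and within 250 kb of UQCRQ and AFF4 at 41.1 and 22.3 FPKM. THADA has ZFP36L2, an RNA-decay factor, 4227 bases away at 24.6 FPKM, and DYNC2LI1 at 3.47 FPKM.

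Around MAPRE1 the leading neighbours were COMMD7 at 19.6 and NOL4L at 4.55 FPKM, both below MAPRE1. HMGA2 had TMBIM4 at 9.60 and LLPH at 2.71 FPKM, and DENND1A had STRBP at 1.85 and LHX2 at 0.1997 FPKM. CRB2 shares 362 exon bases with DENND1A on the other strand, at 0.00642 FPKM, and the strand setting of the counting is not given in the sources used here. ERBB4 had no gene with a row within 250 kb of either end. Of 65 distinct neighbours with a row 51 were tested, and 0 were called in any pairwise comparison by edgeR. At an unadjusted p under 0.05 there were 4 (7.84%, beside 6.08% of all tested genes) at the lower dose, 2 (3.92%, beside 2.35%) at the higher dose and 2 (3.92%, beside 5.64%) between doses, shares near those of all tested genes.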

How the data were processed

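RNA-seq counts of KGN cells were analysed in 9 libraries. The authors deposited raw counts per gene symbol and FPKM of the same genes. Trimmomatic, HTSeq and DESeq on hg38 are named per the submitters' processing notes, whereas the aligner, the annotation and the strand setting were not given in the sources used here. Deposited FPKM are the counts rescaled by 1 fixed length per gene (relative spread at most 5.30e-09 over 11053 genes). They served for levels and for the limma alternatives, not for the reported tests. Positions came from GENCODE 29, which holds 97.3% of the symbols.

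Genes were filtered with filterByExpr (minimum count 10, minimum total 15), leaving 12665 and removing 3318. Counts were TMM-scaled and fitted over all 9 libraries with the quasi-likelihood F-test of edgeR 4.0.16 in R 4.3.3, two-sided, adjusted by Benjamini-Hochberg over all tested genes. Called means an adjusted p under 0.05. The 1.5-fold bound for intervals was chosen after the values were seen. Each standard error was obtained from the log2 fold change and its F statistic. The common biological coefficient of variation was 5.39%. Alternatives used DESeq2 1.42.0, limma 3.58.1 on log2 FPKM with pseudocounts 1 and 0.1, other scalings and filters, and each library left out. The pipeline was tested on simulated data drawn with 1 spread for all genes. That spread was far below the biological coefficient of variation of ERBB4 (12.3%), so the simulation does not cover such a gene. It was also below those of ERBB3 (6.82%), NEIL2 (6.36%), HMGA2 (6.06%), THADA (5.88%) and MAPRE1 (5.56%). Only DENND1A (5.17%), RAB5B (4.48%) and RAD50 (4.39%) had less spread than was simulated.

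Named genes were the members, the 3 most abundant others of each family list, genes removed by the filter, paralogs behind each share, risk-locus genes and the 2 most abundant others within 250 kb, and the gene most correlated with each member. INSR, FSHR, CRB2, GAB1 and the cell type markers given by name were named besides, after their values were seen. The members and lists were chosen with earlier results of these data known.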

Additional observations from a re-analysis of the deposited data

How the results depend on the processing

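No member was called under any of the 83 alternatives to the counts of called members, and the smallest adjusted p among them was 0.365 (ERBB3, higher against lower dose without lower dose replicate 1, log2 fold change 0.16). Of 603 alternative member log2 fold changes, 52 took the other sign and 0 passed the threshold; 41 of the 52 left out a library, and the largest reported value that turned was 0.11 in size. The count of members at an unadjusted p under 0.05, reported as 0, was above 0 in 9 of the 83. It was at most 2, at the lower dose without control replicate 1 (THADA, log2 fold change 0.19, and RAD50, -0.11). The other alternatives among the 9 had 1 each: NEIL2 at the lower dose without control replicate 3, without lower dose replicate 3 and in both limma runs, ERBB4 between doses without higher dose replicate 1 (-0.63) and with the block, and, without lower dose replicate 1, ERBB3 between doses and 1 member over the 3 groups. Of all tested genes, 1333 of 12771 were under 0.05 at the lower dose without control replicate 1, beside 770 of 12665 in the reported fit. Without control replicate 3 there were 413 of 12747, and without lower dose replicate 3 there were 755 of 12761. In limma 760 and 750 of 12665 were under 0.05 with pseudocounts 1 and 0.1. Leaving out 1 library gave log2 fold changes from -0.0478 to 0.0574 for DENND1A, -0.0834 to 0.14 for ERBB3, -0.0446 to 0.0946 for HMGA2 and -0.0259 to 0.0762 for MAPRE1 at the lower dose. At the higher dose they ran from -0.0576 to 0.0336 for DENND1A, -0.28 to 0.12 for ERBB4, -0.0313 to 0.10 for MAPRE1 and -0.0536 to 0.0355 for RAD50. Between doses they ran from -0.0673 to 0.0411 for DENND1A, -0.0629 to 0.16 for ERBB3, -0.0410 to 0.0791 for MAPRE1, -0.0321 to 0.0331 for RAB5B and -0.0439 to 0.0420 for THADA. For the trend they ran from -0.0516 to 0.0325 for DENND1A, -0.23 to 0.16 for ERBB4, -0.0274 to 0.0977 for MAPRE1, -0.11 to 0.00600 for NEIL2 and -0.0415 to 0.0415 for RAD50. NEIL2 at the lower dose was -0.27 without control replicate 3 (edgeR adjusted p = 0.999) and -0.27 without lower dose replicate 3 (edgeR adjusted p = 0.780). The other turned values were all near 0. For HMGA2 at the lower dose they were -0.000852 with RLE factors, -0.00167 without the count filter, -0.00120 at 1 CPM in 3 libraries, -0.000702 in DESeq2, -0.000117 with the compared groups alone, and -0.00422 and -0.00435 in limma with pseudocounts 1 and 0.1. For DENND1A at the lower dose limma gave -0.00108 and -0.00203, and for RAB5B between doses 0.00385 and 0.00399; the cause was not tested.

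Over all genes, where 0 were called, dropping the count filter called 6 at the lower dose, 3 at the higher dose, 4 between doses and 8 over the 3 groups, and DESeq2 called 1 over the 3 groups. Leaving out 1 library called 0 to 1 at the lower dose, 0 to 2 between doses, 0 to 3 over the 3 groups and 0 to 2 for the trend. The level order kept 6 separated steps on TMM-scaled CPM per kilobase and 6 to 7 without each replicate number.

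With the replicate number as a block 0 members were called in any comparison; the smallest p was 0.0445 (ERBB4 between doses, log2 fold change -0.48, adjusted p = 0.703). Same-numbered libraries correlated at -0.07 to 0.29 in their deviations, over 0.1 in 3 of 9 pairs, against -0.26 to 0.0942 for other pairs, and 6 of 9 libraries correlated best with one of their own number. The labels tie the numbers to no shared batch and not every pair was over 0.1, so the block was kept as an alternative, although these values do not show the libraries to be unpaired. Replicate 3 was the lowest of its group in all 3 groups for DENND1A, ERBB3 and ERBB4. For ERBB3 replicate 1 was also the highest in all 3 groups. Replicates 1 and 3 were the most different pair in every group. Depth limits ERBB4 most: counting alone gives it a CV of 14.9%.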

Other observations

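For each member the gene with the most similar pattern was sought among 12664 other tested genes, by Pearson's r of log2 CPM over the 9 libraries. These are descriptions over few libraries that share group, depth and handling. ERBB3 was followed most closely by CCN1 (r = 0.985), a matricellular protein gene, and MAPRE1 by ANXA1 (r = 0.989), the annexin A1 gene. HMGA2 ran with MAOA (0.971), RAB5B with RAB3D (0.970), ERBB4 with TMCC1 (0.962), RAD50 with GATAD2B (0.954), THADA with SNRPG (0.930), DENND1A with N4BP1 (0.924) and NEIL2 with UTP3 (0.908). Between members r ran from -0.72 for THADA and RAD50 to 0.67 for HMGA2 and RAB5B. The locus neighbours RAB5B and ERBB3 had r = -0.27.

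The cytokine genes next to RAD50 were listed near 0 in KGN cells: IL13 stood at 0.0210, IL4 at 0.00773 and IL5 at 0.00165 FPKM. They were named after their values were seen.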
